A study of Homo sapiens with 6 samples.

Results

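The cancer-testis antigen families, including CT16 itself (gene symbol PAGE5), were followed in WM-266-4, an established human melanoma cell line. Probes were taken when their gene symbol started with MAGEA, MAGEB, MAGEC, GAGE, PAGE, XAGE, SSX with a number, CTAG, SPANX, CSAG, CT45A or CT47A, or was PRAME or LUZP4. This gave 128 of the 48803 probes on the array, for 72 of 18665 gene symbols. Of these probes, 8 matched by the letters of their symbol only (SSX2IP, CTAGE1, CTAGE6, CTAGE15, CTAGE10P and the antisense gene MAGEA8-AS1), which left 120 probes for 66 symbols in 14 families. The CT16 group was 3 RNA samples of cells stably transfected with the plasmid pEXPR-IBA103 carrying CT16 cDNA. The control group was 3 RNA samples of cells with the same plasmid without an insert. Both groups were the same cell line, grown in DMEM with fetal bovine serum under G418, to which the plasmid gives resistance. Each sample was hybridised to 1 Illumina bead array. The sources used here do not say whether the samples of a group came from separate cultures. They also do not say whether the cells came from separate transfections, a pool or 1 clone, so p-values measure the spread between these samples only. The comparison asks whether cells given CT16 differ from vector cells in the other members of the families to which CT16 belongs.

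Cancer-testis antigens are proteins made in the germ cells of the testis and, in adults, in few other healthy tissues, but also in many tumors. Most of their genes lie in repeated families on the X chromosome. Their promoters are silenced by DNA methylation in most body cells and can lose that silencing in melanoma, where peptides of several members are recognised by T cells. PAGE5 belongs with the GAGE and XAGE genes to a superfamily of small acidic proteins. Of the 72 symbols here, 70 were matched by identifier to the RefSeq gene table (GAGE4 and GAGE7 were not), and 64 of these lie on chromosome X. PRAME lies on chromosome 22.

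Promoter windows from RefSeq (GRCh38.p14) are shown for the genes on which the results turn. Each window runs from 250 bases before to 50 bases after an annotated transcript start, 5′ to 3′ on the gene's strand, and the capitals mark every CG pair, the site of DNA methylation. The PAGE5 window is chrX:55220096-55220395 on the plus strand and holds 10 CG pairs. It belongs to the native gene, and the cDNA in the plasmid is driven by the plasmid's own promoter. The MAGEC1 window is chrX:141903644-141903943 on the plus strand with 14 CG pairs, and the MAGEC2 window is chrX:142205241-142205540 on the minus strand with 10. The SSX2 window is chrX:52707178-52707477 on the minus strand with 8 CG pairs.
PAGE5: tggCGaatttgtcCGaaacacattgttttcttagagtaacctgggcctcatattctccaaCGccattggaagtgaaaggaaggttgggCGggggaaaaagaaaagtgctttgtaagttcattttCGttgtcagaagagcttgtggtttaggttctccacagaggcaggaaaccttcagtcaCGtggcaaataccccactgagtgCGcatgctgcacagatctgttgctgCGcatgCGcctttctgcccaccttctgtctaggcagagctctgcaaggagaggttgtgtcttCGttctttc
MAGEC1: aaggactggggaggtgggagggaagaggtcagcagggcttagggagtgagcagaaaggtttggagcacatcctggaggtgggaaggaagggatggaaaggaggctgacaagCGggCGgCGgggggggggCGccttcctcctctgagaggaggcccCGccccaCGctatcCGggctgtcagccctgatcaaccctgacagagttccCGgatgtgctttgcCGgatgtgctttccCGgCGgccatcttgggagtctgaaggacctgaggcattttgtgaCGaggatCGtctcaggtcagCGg
MAGEC2: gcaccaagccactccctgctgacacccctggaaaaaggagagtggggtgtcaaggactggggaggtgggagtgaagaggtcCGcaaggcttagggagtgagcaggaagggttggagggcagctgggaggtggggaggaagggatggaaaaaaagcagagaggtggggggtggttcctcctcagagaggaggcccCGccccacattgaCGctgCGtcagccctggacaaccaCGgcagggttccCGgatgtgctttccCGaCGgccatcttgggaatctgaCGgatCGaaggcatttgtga
SSX2: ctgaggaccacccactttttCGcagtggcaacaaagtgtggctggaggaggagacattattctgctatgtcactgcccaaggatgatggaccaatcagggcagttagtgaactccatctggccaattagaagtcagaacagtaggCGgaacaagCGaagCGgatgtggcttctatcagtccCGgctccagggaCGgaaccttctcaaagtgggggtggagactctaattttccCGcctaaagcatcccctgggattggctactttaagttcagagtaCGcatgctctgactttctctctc

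MAGEC1 and MAGEC2 are neighbours on chromosome X, with 0 protein-coding genes between them in the RefSeq table, and their windows had 213 identical bases of 300 (71%) in a global alignment. The PAGE5 window shared 236 bases (78.7%) with that of PAGE2 and 223 (74.3%) with that of PAGE2B. The windows of MAGEA3 and MAGEA6 were identical over all 300 bases. Promoter identity does not say what a probe reads, and probe sequences were not analysed here. Since the transcripts of several families are known to be near copies (MAGEA3 with MAGEA6, MAGEA2 with MAGEA2B, CTAG1A with CTAG1B, and many SSX, GAGE, SPANX, CT45A and CT47A genes), the gene assignment of their probes is uncertain.

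A probe was counted as detected on an array when its deposited detection p was under 0.01. Per array, 33 to 39 of the 128 probes were detected, in the order of replicates 33, 37 and 37 on the control arrays and 39, 34 and 33 on the CT16 arrays. The numbers of the groups overlapped. Over all arrays, 25 probes were detected on all 6, 12 on 3 to 5, 11 on 1 or 2 and 80 on none. Among all 48803 probes 28.9% were detected on all 6 arrays and 54.9% on none. The 80 undetected probes had deposited signals of 37.7 to 74.8, and their symbols may be transcribed below what these arrays could detect. At the level of symbols, 30 were detected on at least 1 array and 42 on none. In these bulk cultures, fewer cells with a transcript and less transcript per cell cannot be told apart.

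The array labelled CT16 replicate 3 stood apart from the other 5. It had the fewest detected probes (16200, against up to 18789). Its correlations with the other arrays over the tested probes were 0.884 to 0.936, where other pairs of arrays reached up to 0.994. The probes of the families that were tested lay above the mean of CT16 replicates 1 and 2 on it, with a median log2 distance of 0.46, against 0.12 for all tested probes. It gave the highest of the 6 values for 21 of 37 members (56.8%, against 40.8% of all tested probes). Differences are therefore also given without it, and its part in them was otherwise not tested. Control replicate 1 departed from the other arrays as well, to a lesser degree. It had the next fewest detected probes (17151) and a highest correlation of 0.977. It was also the array closest to CT16 replicate 3 (0.936). The melanocyte markers of the line were present, with PMEL, MLANA, TYR and SOX10 among the 9 of 9 marker genes with a tested probe. Of the 7 testis germ cell markers with a probe, only ACRV1, an acrosomal protein gene, was tested, and DAZL, SYCP3, TEX101, DPPA3 and PRM1 were not detected. Of the leukocyte markers, PTPRC and CD3E were not detected, LYZ was detected on 3 arrays and CD14 on all 6 (log2 difference 0.33 ± 0.31, groups overlapping). Summed over this list, the linear normalized signal was 833 to 1203 on control arrays and 957 to 1614 on CT16 arrays. Of the epithelial markers, KRT8 and KRT19 were not detected, KRT18 was detected on all 6 arrays (-0.36 ± 0.43) and EPCAM on 4 (-0.03 ± 0.26). CDH1, the gene of E-cadherin, was detected on 3 control and 0 CT16 arrays, at least 1.34-fold lower in CT16 cells. It passed the filter for testing through the control arrays alone, so its sign is no support for a difference and no p-value is given. The summed epithelial signal was 284 to 326 on control arrays and 233 to 342 on CT16 arrays. Of 5 fibroblast markers, DCN, COL1A1 and PDGFRB were detected on 1 array each, while the tested COL1A2 and LUM had log2 differences of -1.81 and -1.87, without overlap of the groups and without passing the threshold (adjusted p = 0.0877 and 0.1). Without CT16 replicate 3 both passed it, with differences of -1.66 (adjusted p = 0.0239) and -1.60 (0.0166). Summed over the fibroblast probes, the linear normalized signal was 7006 to 10255 on control arrays and 2172 to 3091 on CT16 arrays, and the part of these markers in the results was not tested.

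**Figure D1:**
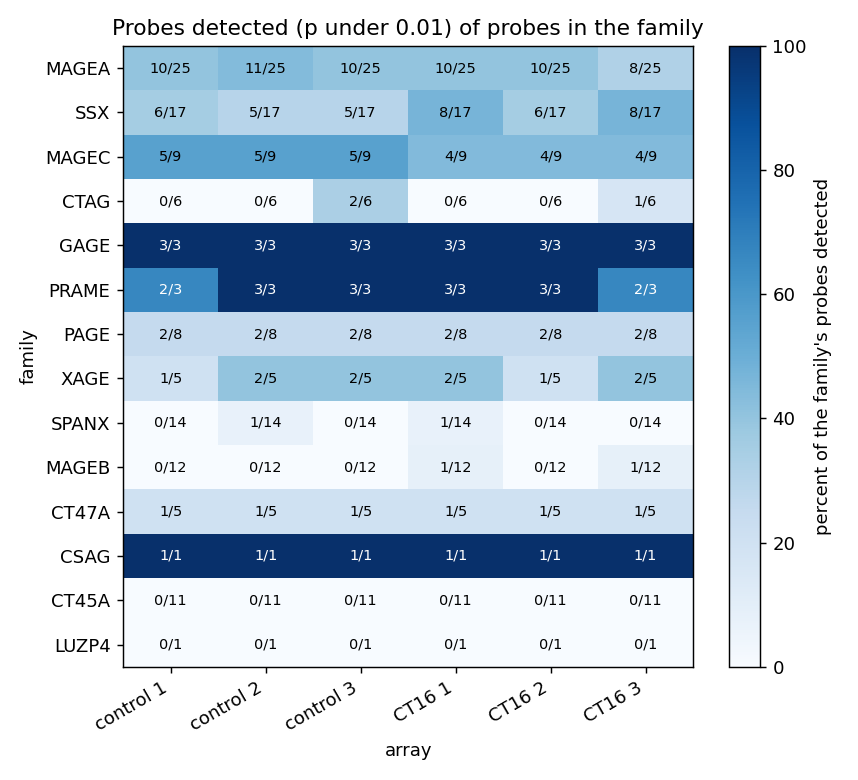
Probes detected at a detection p under 0.01 in each of the 14 families (rows) on each of the 6 arrays (columns). The cell text gives probes detected over probes in the family and the shade gives that share in percent. GAGE and CSAG were detected on every array with all their probes, and CT45A and LUZP4 on none.

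The families fell into those that were read on these arrays and those that were not, and 5 of the 14 had no tested probe. All 3 GAGE probes and the single CSAG1 probe were detected on all 6 arrays. CSAG1 is the chondrosarcoma-associated gene that lies among the MAGEA genes. PRAME, a leucine-rich repeat protein and melanoma antigen, had 2 of 3 probes detected on all arrays, and the third on 4. For MAGEA, proteins with a MAGE homology domain that bind RING ubiquitin ligases, 13 of 25 probes were detected on at least 1 array and 7 on all 6. For MAGEC, members of the same protein class, this was 5 and 4 of 9 probes. For SSX, nuclear repressors of transcription that are fused to SS18 in synovial sarcoma, it was 10 and 4 of 17 probes.

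The other families were mostly below detection. None of the 11 CT45A probes and not the LUZP4 probe, for a nuclear mRNA export factor, was detected on any array. Of 14 SPANX probes, for sperm nucleus-associated proteins, SPANXB1 alone was detected, on 2 arrays, and of 12 MAGEB probes MAGEB3 alone, on 2 arrays. The CTAG genes, which include CTAG1B, the gene of the antigen NY-ESO-1, had 3 of 6 probes detected on 1 array each. Among 5 CT47A probes, the CT47A7 probe was detected on all 6 arrays and the other 4 on none. In the PAGE family PAGE5 was the only gene detected. The 6 undetected probes of that family, with a highest signal of 70.2, were 1 of PAGE5 and those of PAGE1, PAGE2, PAGE2B, PAGE3 and PAGE4. MAGEC3, the gene next to MAGEC1, was likewise not detected with any of its 4 probes.

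MAGEA3, MAGEA2B, CSAG1, MAGEA12, MAGEA2 and MAGEA6, which lie close together in the RefSeq gene order, were each detected on at least 1 array. MAGEA1, MAGEA4, MAGEA8, MAGEA9 and MAGEA9B were not detected on any array. Promoter windows were found for 48 of the 66 family symbols. The windows held a median of 12 CG pairs (5 to 21) for 17 genes with a tested probe, 9 for 3 genes detected on 1 or 2 arrays and 8 (1 to 21) for 28 genes never detected. Over 27305 genes with a window the median was 13, with quartiles of 3 and 28. The ranges of the tested and undetected genes overlapped. The letters CCGGAA, the core of binding sites of ETS factors, were found on either strand (as CCGGAA or TTCCGG) in the windows of MAGEA3, MAGEA6 and PRAME among the 17 tested genes (17.6%) and in that of MAGEB6 among the 28 undetected (3.57%). They occurred in 4 of the 48 family windows (8.33%) and in 17.6% of all windows. None of the windows printed above holds these letters, and a match is a description of the sequence only.

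The transfected gene was the check of the labels. PAGE5 was read by 3 probes, and where these lie on the cloned cDNA was not analysed here. A probe outside the insert cannot check the labels. On probe ILMN_2363141 the deposited signals were 80.7, 84.6 and 94.2 on the control arrays and 117, 120 and 171 on the CT16 arrays. All CT16 arrays were above all control arrays, and CT16 replicate 3 was the highest. After normalization the log2 signals were 5.40, 5.44 and 5.70 against 6.24, 6.14 and 7.47. The difference of 1.11 ± 0.37 (SE, n = 3 and 3; 95% interval 0.23 to 1.98), or 2.15-fold, ranked at 613 of 18156 tested probes by p and missed the threshold (limma adjusted p = 0.582). Without CT16 replicate 3 it was 0.68.

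The other PAGE5 probes did not follow the plasmid. On ILMN_1744656 the log2 signals were 5.36, 5.62 and 5.37 on control arrays and 5.11, 5.20 and 6.09 on CT16 arrays. The groups overlapped, with CT16 replicate 3 above and the other CT16 arrays below every control array. The log2 difference was 0.02 ± 0.30 (95% interval -0.69 to 0.73), and -0.29 without that array. Its sign was negative with median scaling and with cyclic loess. No array detected ILMN_1695992, which had signals of 48.4 to 64.0. Both detected probes were detected on all 3 control arrays as well, close to the lowest signals called detected (log2 5.14 to 5.25 there). Signals this close to the limit do not show that vector cells express PAGE5, and they leave the size of the fold uncertain. The paper describes this cell line as CT16 negative, with background fluorescence only in vector cells. It also reports that CT16 mRNA and protein were verified in the CT16 transfected cells.

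**Figure D2:**
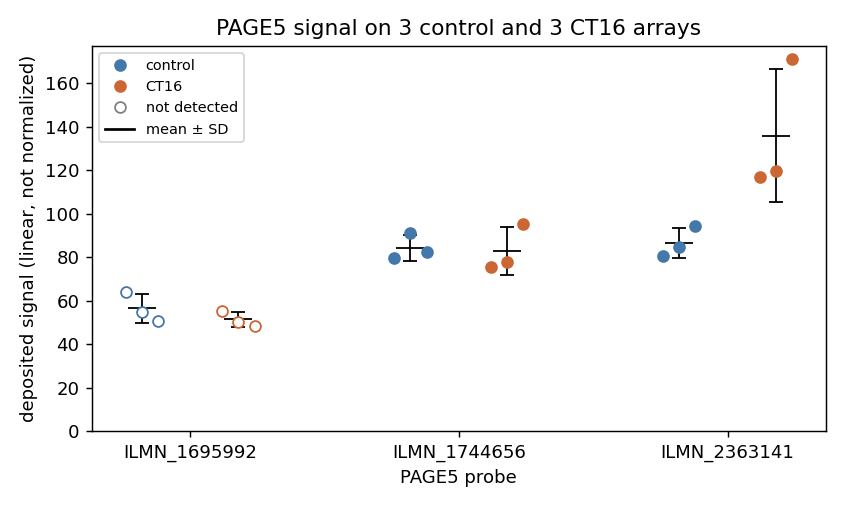
Deposited signal (linear scale, not normalized) of the 3 PAGE5 probes on 3 control and 3 CT16 arrays. Filled points are detected and open points are not, and bars give the mean ± SD. Only on ILMN_2363141 do the CT16 arrays (117 to 171) lie above the control arrays (80.7 to 94.2).

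The comparison of CT16 with control cells was possible for the 37 member probes detected on at least 3 arrays, 34 of them in the families (25 and 22 symbols). With limma, 0 of 37 passed an adjusted p of 0.05 over all tested probes, where 36 of 18156 probes passed (0.198%; 0.132% higher and 0.0661% lower in CT16 cells), and the lowest adjusted p of a member was 0.147. At an unadjusted p under 0.05 there were 9 members (24.3%), against 6.34% of all tested probes. Of the 9, 6 were higher in CT16 cells (1 PAGE5, 2 MAGEC2, 2 SSX2 and 1 SSX3 probes) and 3 were lower, all of MAGEC1. They represent 5 genes, and probes of 1 gene are not independent. The MAGEC1 probe ILMN_1666378, detected on control arrays only, entered the test through that group alone. The groups of arrays did not overlap for 8 members (21.6%, against 14.1% of all tested probes), with CT16 above in 6 (7.14% of all tested probes) and below in 2 (6.92%). Among the 36 members detected in both groups, 8 had an unadjusted p under 0.05 (22.2%) and 7 had groups apart (19.4%). The shares of all tested probes under this restriction were not computed, so these 2 percentages have no matching background. Without CT16 replicate 3 the groups were apart for 17 members (7 above and 10 below), in a setting where 16% of all tested probes were above and 17.4% below. In that setting 10 members had an unadjusted p under 0.05 (12% of all tested probes) and 0 passed the adjusted threshold, with a lowest adjusted p of 0.0599.

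As a group the members showed no common direction. Of 37 probes, 21 had positive and 16 negative log2 differences, with a median of 0.04 against -0.01 for all tested probes, and 0.08 for the 34 family probes. The median size of a difference was 0.27, against 0.23 for all tested probes. Without CT16 replicate 3 the median of the 37 was -0.01, and 18 were positive. The differences ranged from -1.07 (MAGEC1) to 1.31 (SSX2).

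**Figure D3:**
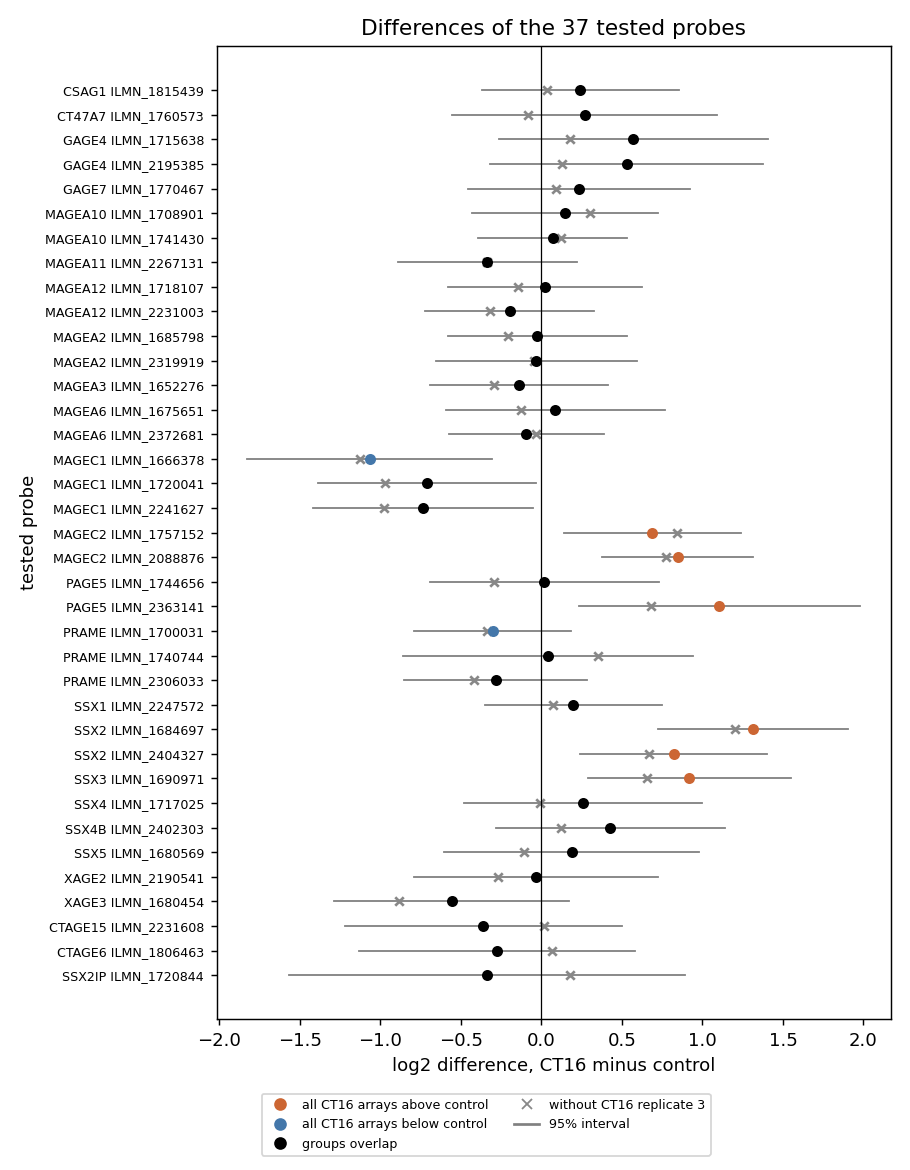
Log2 difference, CT16 minus control, of the 37 tested probes (points) with 95% intervals (lines), and the difference without CT16 replicate 3 (crosses). The SSX probes lie between 0.19 and 1.31, the MAGEC probes on both sides of 0, and most MAGEA probes near 0.

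MAGEC2 and MAGEC1 had differences of opposite sign. MAGEC2 encodes a MAGE protein that binds the ubiquitin ligase TRIM28. On ILMN_2088876 its log2 signals were 7.72, 7.77 and 7.81 on the control arrays and 8.62, 8.47 and 8.76 on the CT16 arrays. The groups did not overlap, and the arrays of each group lay close together. The difference was 0.85 ± 0.20 (SE), or 1.80-fold (limma adjusted p = 0.285, unadjusted 0.00342). Without CT16 replicate 3 it was 0.77. On the second MAGEC2 probe, ILMN_1757152, the log2 signals were 6.03, 6.34 and 6.10 against 6.91, 7.09 and 6.54. Here CT16 replicate 3 was the lowest of the CT16 arrays, still above the control arrays, and the difference was 0.69 ± 0.23 (limma adjusted p = 0.589). With median scaling, with cyclic loess and on the deposited signals the groups overlapped on this probe.

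MAGEC1, the antigen CT7 with a long repeat region before its MAGE domain, was read by 3 tested probes. On ILMN_2241627 the log2 signals were 8.56, 7.97 and 8.18 on control arrays and 7.34, 7.18 and 7.99 on CT16 arrays. On ILMN_1720041 they were 8.13, 7.86 and 7.69 against 7.04, 6.80 and 7.70. On both, CT16 replicates 1 and 2 were below all control arrays, and CT16 replicate 3 lay within the range of the control arrays. The differences were -0.73 ± 0.29 and -0.71 ± 0.29 (limma adjusted p = 0.735 and 0.748), and -0.98 and -0.97 without that array. On the deposited signals, with median scaling and with cyclic loess, all 3 CT16 arrays were below the control arrays on both probes.

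The third MAGEC1 probe, ILMN_1666378, had log2 signals of 6.45, 5.38 and 5.45 on control arrays and 4.77, 4.50 and 4.81 on CT16 arrays. It was detected on all 3 control and on 0 CT16 arrays, and the groups did not overlap. Since it had no detected value in CT16 cells, only a bound on the group means is given, at least 1.49-fold lower. For each CT16 array the bound takes the higher of its own value and the lowest value called detected there. This bound rests largely on control replicate 1. Control replicates 2 and 3 were close to the lowest value called detected on CT16 replicate 3 (5.39). The fitted difference was -1.07 ± 0.32 (limma adjusted p = 0.502). It passed the filter through the control arrays alone, so its sign adds no support to the other MAGEC1 probes. Those 2 MAGEC1 probes had negative values and both tested MAGEC2 probes positive values under every setting tried, and of these 4 none passed the threshold in any setting other than array weights.

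**Figure D4:**
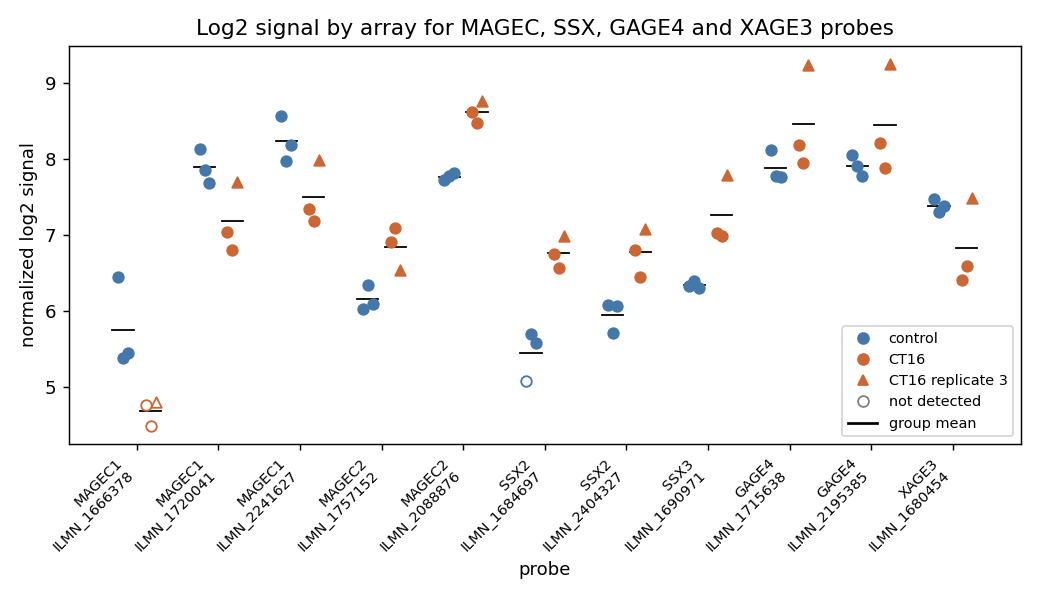
Normalized log2 signal of 11 probes of MAGEC1, MAGEC2, SSX2, SSX3, GAGE4 and XAGE3 on each array, with group means as lines, open symbols for arrays where the probe was not detected and triangles for CT16 replicate 3. MAGEC2, SSX2 and SSX3 lie higher on every CT16 array, and on GAGE4 the triangle stands far above all other symbols.

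The log2 differences of all 7 tested SSX probes were positive (median 0.43), where 49.3% of all tested probes were positive. CT16 replicate 3 gave the highest of the 6 values on all 7 of them. Without it 5 of 7 were positive with a median of 0.13, between -0.11 and 1.20. Similar sequences among the SSX genes mean that these probes may read the same transcripts.

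SSX2 and SSX3 carried the larger SSX values. On ILMN_1684697, a probe of SSX2, the log2 signals were 5.08, 5.70 and 5.58 on the control arrays and 6.74, 6.57 and 6.99 on the CT16 arrays. Every CT16 array was above every control array, and on control replicate 1 the probe was not detected, so the size of the difference is uncertain. The difference was 1.31 ± 0.25 (SE; 95% interval 0.73 to 1.90), or 2.49-fold, the largest of the 37 members and at rank 127 of all tested probes (limma adjusted p = 0.147, unadjusted 0.00103). Without CT16 replicate 3 it was 1.20, with an adjusted p of 0.0599. The second tested SSX2 probe, ILMN_2404327, had log2 signals of 6.08, 5.72 and 6.07 against 6.80, 6.44 and 7.08, again without overlap, and a difference of 0.82 ± 0.25 (adjusted p = 0.497). Of the other SSX2 probes, ILMN_1676207 was detected on 1 CT16 array and ILMN_2292723 on none.

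SSX3 (ILMN_1690971), a family member with the same repressor domains, had log2 signals of 6.33, 6.39 and 6.30 on control arrays and 7.02, 6.98 and 7.78 on CT16 arrays. The control arrays lay close together and all CT16 arrays above them. The difference was 0.92 ± 0.27, or 1.89-fold (limma adjusted p = 0.462), and 0.66 without CT16 replicate 3. The tested SSX1, SSX4, SSX4B and SSX5 probes overlapped between groups, except that SSX4B was apart on the deposited signals (94.7 to 104 against 106 to 129) and with median scaling. Their differences were 0.20, 0.26, 0.43 and 0.19, and 0.07, -0.01, 0.13 and -0.11 without CT16 replicate 3. SSX1, SSX2 and SSX4 are the genes that form the synovial sarcoma fusions.

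Quantile normalization with or without background correction and the authors' values set the same members apart, which leaves 4 distinct ways of scaling, and 6 member probes had groups without overlap in each. They were PAGE5 ILMN_2363141, MAGEC2 ILMN_2088876, both tested SSX2 probes, SSX3 and MAGEC1 ILMN_1666378, the last detected on control arrays only. The number of members above and below was 6 and 2 with the normalization used here. It was 8 and 6 on the deposited signals (8.14% and 7.11% of all tested probes), 8 and 5 with median scaling (7.97% and 6.87%) and 5 and 4 with cyclic loess (7.34% and 7.49%).

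GAGE genes, which belong with PAGE5 to the same superfamily, had 3 positive log2 differences. On the GAGE4 probe ILMN_1715638 the log2 signals were 8.12, 7.78 and 7.76 on control arrays and 8.18, 7.95 and 9.23 on CT16 arrays, and on ILMN_2195385 they were 8.05, 7.91 and 7.78 against 8.20, 7.88 and 9.25. CT16 replicate 3 was over 1 log2 unit above each other array on both probes, and CT16 replicates 1 and 2 were close to the control arrays. The differences of 0.57 ± 0.36 and 0.53 ± 0.36 became 0.18 and 0.13 without it. On the deposited signals (274 to 291 on control arrays and 322 to 523 on CT16 arrays for ILMN_1715638) and with median scaling, all CT16 arrays were above all control arrays on both probes. GAGE7 (ILMN_1770467) had a difference of 0.23 ± 0.29, and 0.09 without that array.

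In the XAGE genes of the same superfamily the tested probes had negative values. XAGE3 (ILMN_1680454) had log2 signals of 7.47, 7.30 and 7.38 on control arrays and 6.40, 6.59 and 7.49 on CT16 arrays. CT16 replicates 1 and 2 were below all control arrays, while CT16 replicate 3 was above them with this normalization. The groups also overlapped without background correction and on the authors' quantile normalized values. On the deposited signals (201, 214 and 219 against 126, 151 and 172), with median scaling and with cyclic loess, all 3 CT16 arrays were below the control arrays. The difference was -0.56 ± 0.31 (limma adjusted p = 0.959), and -0.89 with an adjusted p of 0.0639 without that array. XAGE2 (ILMN_2190541) was detected on 4 arrays with a difference of -0.03 ± 0.32.

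Most MAGEA members differed little between the groups. Of 10 tested MAGEA probes, 4 had positive and 6 negative differences, between -0.34 and 0.15, and the lowest adjusted p was 0.959. The MAGEA10 probe ILMN_1741430 had deposited signals of 1830, 1969 and 1795 on control arrays and 2016, 2150 and 1745 on CT16 arrays. The groups overlapped, and the log2 difference after normalization was 0.07 ± 0.20 (95% interval -0.40 to 0.53). Its other tested probe gave 0.15 ± 0.25.

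MAGEA3 and MAGEA6, which act with TRIM28 in degrading AMPK, gave -0.14 ± 0.24 for MAGEA3 and 0.09 ± 0.29 and -0.09 ± 0.21 for MAGEA6. MAGEA12 gave 0.02 ± 0.26 and -0.20 ± 0.22, MAGEA2 -0.02 ± 0.24 and -0.03 ± 0.27, and MAGEA11, a coregulator of the androgen receptor, -0.34 ± 0.24. Leaving out an array turned the sign of 5 of these 8 values, and not of those for MAGEA11, MAGEA12 ILMN_2231003 (-0.20) and MAGEA6 ILMN_2372681 (-0.09). The other MAGEA11 probe, ILMN_1686083, was detected on 2 control and 0 CT16 arrays, with deposited signals of 78.4, 83.2 and 72.8 against 69.5, 72.2 and 72.8. After normalization its groups overlapped, and no fold is given. CSAG1 in the same gene cluster gave 0.24 ± 0.26, and 0.03 without CT16 replicate 3. The MAGEA12 probe ILMN_2231003 had all CT16 arrays below the control arrays on the deposited signals (430 to 480 against 518 to 561). This also held with median scaling, and the groups overlapped with the normalization used here and with cyclic loess.

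The remaining members gave single values. PRAME, a substrate receptor of a cullin ubiquitin ligase, had log2 signals of 12.16, 11.95 and 11.79 on control arrays and 11.67, 11.59 and 11.74 on CT16 arrays on ILMN_1700031. The CT16 arrays were below the control arrays by a narrow margin, with a difference of -0.30 ± 0.21 (95% interval -0.79 to 0.19; limma adjusted p = 0.959). Its other probes gave -0.28 ± 0.24 and 0.04 ± 0.38, both with overlap. With median scaling and with cyclic loess the groups overlapped on ILMN_1700031 as well. MAGEB3, detected on 2 CT16 and 0 control arrays and so not tested, had log2 signals of 4.44, 4.61 and 4.91 against 5.61, 4.97 and 5.68. Its CT16 arrays were above its control arrays, but replicate 2 of CT16 was itself not detected, and no fold is given. CT47A7 gave 0.27 ± 0.35 and -0.09 without CT16 replicate 3. Its CT16 arrays spanned 5.09 to 6.33, wider than its control arrays.

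The tested probes that matched by letters only had their lowest values on CT16 replicate 3. SSX2IP, a centrosomal protein that binds SSX2, and the CTAGE6 and CTAGE15 genes gave log2 differences of -0.34, -0.27 and -0.36, and 0.17, 0.07 and 0.02 without CT16 replicate 3. None of the 3 was detected on that array. The other 5 probes of this kind were not detected on any array.

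Related genes outside the families were read from lists, with each gene represented by its brightest tested probe. Among 32 other cancer-testis genes, 11 had a tested probe and 0 passed the threshold, with 5 positive and 6 negative differences and a median of -0.09. They included the insulin-like growth factor 2 mRNA-binding protein gene IGF2BP3 (-0.26 ± 0.60) and the centromere protein gene OIP5 (0.49 ± 0.36). TDRD1, a Tudor protein of the germline piRNA pathway, gave 0.20 ± 0.20. Without CT16 replicate 3 IGF2BP3 gave 0.46, OIP5 0.85 and TDRD1 0.23. Leaving out that array turned the signs of IGF2BP3, ATAD2, HORMAD1 and PBK to positive and that of SPO11 to negative, so the split of signs depends on it. For the broadly expressed MAGE relatives, 10 genes were tested, 0 passed and the median was -0.03. MAGED1, whose protein binds a neurotrophin receptor, gave 0.18 ± 0.20 and NDN, the imprinted gene of necdin, 0.22 ± 0.25. On this MAGED1 probe the CT16 arrays lay above the control arrays, while the MAGED1 probe ILMN_2306189 gave 0.08 ± 0.22 with overlap. The MAGED1 probe ILMN_1762792 (0.84 ± 0.23) was detected on 3 CT16 and 0 control arrays. It passed the filter through the CT16 arrays alone, so its sign adds no support. For MAGED2 the brightest probe gave 0.03 ± 0.35, ILMN_1661417 gave -0.11 ± 0.22 and ILMN_1684984 gave 0.91 ± 0.48, all with overlap. The MAGED2 probe ILMN_1789567 gave 1.43 ± 0.50 (limma adjusted p = 0.617) with the CT16 arrays above the control arrays, and 0.87 without CT16 replicate 3.

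Of the genes of DNA methylation and repressive chromatin, through which cancer-testis genes are kept silent, 21 were tested and 0 passed. In this list 7 differences were positive and 14 negative, with a median of -0.17. The maintenance methyltransferase DNMT1 gave -0.18 ± 0.22, the deacetylase HDAC1 0.12 ± 0.20 and the de novo methyltransferase DNMT3B -0.22 ± 0.22. The lowest adjusted p, 0.721, was that of the histone H3 methyltransferase EHMT1 (-0.70 ± 0.27), which was below all control arrays on every CT16 array. This probe, ILMN_1812273, was detected on 3 control arrays and 1 CT16 array. Its control arrays alone met the filter, and the size of the difference is uncertain. The other EHMT1 probes were not detected on any array. The polycomb methyltransferase EZH2 was read by 3 tested probes. The brightest, ILMN_2364529, gave 0.42 ± 0.25, ILMN_1652913 gave 0.80 ± 0.27 and ILMN_1708105 gave 0.44 ± 0.28 (limma adjusted p = 0.959, 0.584 and 0.959), with groups apart on all but the last. Of the protein partners of MAGE and SSX, 10 were tested and 0 passed, with a median of 0.00. TRIM28 gave -0.02 ± 0.43, the polycomb protein RING1 0.16 ± 0.29 and NSMCE1, a RING ligase of the SMC5/6 complex, 0.20 ± 0.28.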

How the data were processed

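Total RNA samples, 3 of CT16 and 3 of control cells, were labelled with biotin by the authors and hybridised to Illumina Human-6 bead arrays. The deposited intensities were neither normalized nor background-subtracted, and each came with a deposited detection p-value against negative control beads. The program behind them and the genome build of the probe design are not given in the sources used here. Quantile normalized intensities were deposited as well, and 99.998% of these lay within 1% of values computed from the unnormalized table (linear scale, median 64.5).

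In limma 3.58.1 (R 4.3.3) the background was corrected by normexp, with negative controls taken from the detection p-values, 16 was added as an offset, and arrays were quantile normalized on the log2 scale. Probes detected (p under 0.01) on at least 3 of 6 arrays, 18156 of 48803, were tested with lmFit and eBayes, two-sided, with Benjamini-Hochberg adjustment over all of them and a threshold of 0.05. Differences are CT16 minus control, and the number of arrays limits their precision. The rank product test named in the study's methods was not run.

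Symbols came from a table of the platform's annotation (27578 probes with 1 symbol, 13 with several and 21212 not listed, left unnamed). Named are all PAGE5 probes, every member symbol with a probe detected on at least 3 arrays, members detected on at least 2 arrays of 1 group and 0 of the other, and from each related list the 2 genes of highest mean signal. Marker genes came from lists of cell type markers. ATAD2, DNMT3B, EHMT1, EZH2, HORMAD1, MAGED2, PBK, SPO11, TDRD1 and TRIM28 fall outside this rule and were chosen with their values known. The members and lists were chosen with earlier results of these data known. Promoter windows were aligned with Biopython 1.88. As alternatives, the background correction was omitted, arrays were scaled by the median or by cyclic loess, the deposited normalized values were used, the offset was 50, the detection filter was dropped or made stricter, the prior was robust with a trend, arrays were weighted or left out in turn, and the replicate number was a block. Counts without CT16 replicate 3 and without members detected in 1 group only were added after seeing the data. Groups came from the sample labels, no slide or scan date was used, and 0 columns were left unused.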

Additional observations from a re-analysis of the deposited data

How the results depend on the processing

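The number of probes past the threshold was 36 with the settings used, 23 with no background correction, 7 with probes detected on all 6 arrays and 4 to 205 with each array left out (205 without CT16 replicate 3, 4 without control replicate 1 and without CT16 replicate 1). Member probes past it were 0 in all of these and 23 with array weights (12 higher and 11 lower), a setting that called 7254 probes and in which the PAGE5 probe ILMN_2363141 gave 0.74. The array weights ran from 0.0601 (CT16 replicate 3) to 37.8 (CT16 replicate 1), and their estimation did not converge, so these calls rest mainly on a single CT16 array. With the replicate number as a block 3 probes and 0 members passed. The correlations of same-numbered arrays' deviations were -0.62, 0.61 and -0.58. They had no common sign, so pairing by replicate number was not seen, and 3 arrays per group cannot exclude it.

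The sign of 21 of 37 member differences was the same under all alternatives and left-out arrays. With median scaling, values of opposite sign were -0.082 (MAGEA12, ILMN_1718107), -0.014 (MAGEA6, ILMN_1675651) and -0.065 (PAGE5, ILMN_1744656), and with cyclic loess -0.037 (MAGEA12) and -0.085 (PAGE5). With array weights they were -0.14 (CT47A7), -0.089 (GAGE7), 0.13 (MAGEA6, ILMN_2372681) and -0.43 (PAGE5, ILMN_1744656). The cause was not tested. With 1 array left out, the ranges that crossed 0 were -0.086 to 0.54 (CT47A7), -0.67 to 0.016 (CTAGE15), -0.60 to 0.068 (CTAGE6), -0.031 to 0.42 (GAGE7), -0.15 to 0.22 (MAGEA12), -0.21 to 0.083 and -0.28 to 0.14 (MAGEA2), -0.30 to 0.032 (MAGEA3), -0.12 to 0.36 (MAGEA6), -0.29 to 0.20 (PAGE5, ILMN_1744656), -0.29 to 0.35 (PRAME, ILMN_1740744), -0.75 to 0.17 (SSX2IP), -0.011 to 0.49 (SSX4), -0.11 to 0.45 (SSX5) and -0.27 to 0.17 (XAGE2). Signals near the detection limit and the 3 arrays per group limit the precision of all of these.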
